A study of Mus musculus with 45 samples.

Results

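The 10 genes described here encode the subunits of the transcription factor NF-κB and its inhibitors, and were chosen by name from the 56039 genes that the 3 expression tables list together. They comprise 5 subunit genes (*Nfkb1*, *Nfkb2*, *Rel*, *Rela* and *Relb*), 3 classical inhibitor genes (*Nfkbia*, *Nfkbib* and *Nfkbie*) and 2 genes for nuclear proteins of the inhibitor family (*Nfkbiz* and *Bcl3*). All 10 were present in each of the 3 tables and each symbol belonged to 1 gene identifier. Their levels were compared across 4 treatments: TNF and GM-CSF on microglia in cultured brain slices, and LPS given to adult mice, read in isolated microglia and in whole brain tissue.

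NF-κB works as a dimer of subunits. In resting cells the classical inhibitors IκBα (*Nfkbia*), IκBβ (*Nfkbib*) and IκBε (*Nfkbie*) hold dimers containing RelA or c-Rel in the cytoplasm, and receptors such as those for TNF and LPS lead to phosphorylation and destruction of the inhibitors. A second, slower route processes the p100 product of *Nfkb2* and releases dimers with RelB. Several of the subunit and inhibitor genes are themselves known NF-κB targets, and IκBα is the textbook case of negative feedback in this pathway.

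RNA was sequenced from 45 samples of C57BL/6 mice in 7 groups. Microglia, the resident macrophages of the brain, were sorted from coronal slices of neonatal brain after 2 weeks in culture, the last 24 h of them in plain medium (9 samples), with 50 ng/mL TNF (11 samples) or with 20 ng/mL GM-CSF (9 samples). Per the study's methods the culture medium of every slice also held human PDGF and horse serum. The labels give 3 pooled slices per sample. The slice samples came from 4 independent experiments, and the labels do not say which samples belong to which. Adult microglia came from female mice of 10 to 15 weeks, 24 h after intraperitoneal LPS at 1 mg/kg (4 samples) or PBS (4 samples). Whole brain tissue was taken at the same age, 4 samples of it 24 h after that LPS dose and 4 from untreated mice, so that the brain tissue control received no injection. Sorting kept live cells with high CD11b and intermediate CD45. Per the study, the 4 samples of each in vivo group came from independent mice. The labels do not say whether slice samples shared an animal, or whether any samples shared a litter. The p-values therefore set a difference against the spread between these samples, taken as independent. For slice samples the p-values do not account for spread between animals, litters or experiments, and may be too small for it. For in vivo samples they do not account for spread between litters or experiments, and may likewise be too small.

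Slice microglia libraries held 5973364 to 9165485 counts and adult microglia libraries 11391564 to 14216005. Those of brain tissue held 8199863 to 9452488 counts after LPS and 9641550 to 10368578 without treatment. Levels are given as CPM, that is, relative to library totals adjusted by TMM within each table. Where levels of different tables are printed together, no difference in level between tables is drawn from them. The 8 microglia markers (*P2ry12*, *Tmem119*, *Cx3cr1*, *Csf1r* and others) were detected in all groups and summed to 12200 to 28900 CPM in slice microglia and 43300 to 61700 in adult microglia. Genes from the marker lists of other cells were detected in adult microglia libraries. Of the 5 endothelial markers *Cldn5* and *Tek* were at 0 in every such library, but the list summed to 28.9 to 36.3 CPM with PBS and 10.2 to 13.7 with LPS. The astrocyte markers summed to 254 to 280 CPM and 145 to 181 CPM, and the neutrophil markers to 32.6 to 69.3 CPM and 1.61 to 7.66 CPM. Only *Slc1a3* and *Aldh1l1* of the astrocyte markers and *Pecam1* of the endothelial markers passed the low-count filter there. A call required more than a 1.5-fold change and, by the edgeR quasi-likelihood test, a Benjamini-Hochberg adjusted p below 0.05 over all genes tested.

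Promoter sequence was examined because 6 of the 10 genes moved together under TNF. RefSeq starts on GRCm38.p6 were at hand for 7 genes (*Nfkb2*, *Rel*, *Rela*, *Nfkbia*, *Nfkbib*, *Nfkbie* and *Bcl3*). *Nfkb1*, *Relb* and *Nfkbiz* were without an entry. The 250 bases upstream of each start were searched on both strands for the κB consensus, the 10-base motif bound by NF-κB dimers. Of 32851 such windows over all genes, 3.9% held at least 1 match, as did 6 of the 9 windows of the 7 genes. *Nfkb2* accounts for 3 of the 9, and its windows at chr19:46305445-46305694 and chr19:46305680-46305929 overlap. Counted by gene, 4.46% of all symbols and 4 of the 7 genes had a match in at least 1 window, namely *Nfkb2*, *Rel*, *Nfkbia* and *Nfkbie*. The windows of the inhibitor genes *Nfkbia* and *Nfkbie* are shown 5′ to 3′ with the match in capitals, since these genes had the largest TNF responses among the inhibitors.
Nfkbia, minus strand, chr12:55492648-55492897: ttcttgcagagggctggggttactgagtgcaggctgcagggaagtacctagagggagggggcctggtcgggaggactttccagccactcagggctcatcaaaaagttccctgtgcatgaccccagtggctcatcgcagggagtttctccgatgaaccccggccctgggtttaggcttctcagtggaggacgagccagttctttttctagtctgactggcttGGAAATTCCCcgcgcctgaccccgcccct
Nfkbie, plus strand, chr17:45555450-45555699: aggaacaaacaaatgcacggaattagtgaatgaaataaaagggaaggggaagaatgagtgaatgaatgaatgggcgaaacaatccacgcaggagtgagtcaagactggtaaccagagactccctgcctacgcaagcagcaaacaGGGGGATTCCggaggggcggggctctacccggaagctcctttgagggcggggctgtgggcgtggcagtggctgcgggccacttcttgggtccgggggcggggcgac
The *Nfkbia* match lay 29 to 20 bases before the start and the *Nfkbie* match 106 to 97 bases before it. At the first of 3 *Nfkb2* starts, GGGAATTCCC (chr19:46304698-46304707) and GGGGCTTTCC (chr19:46304726-46304735) matched, the former overlapped by a match shifted by 1 base. GGAATGTCCC (chr19:46305459-46305468) and GGGACTTTCC (chr19:46305705-46305714) matched at the other *Nfkb2* starts. *Rel* held GGGAAATCCC (chr11:23771052-23771061), likewise overlapped by a shifted match. *Rela*, *Nfkbib* and *Bcl3* held no match to these letters in this window. Matches and TNF calls did not coincide throughout: *Rel* held a match and was not called, whereas *Nfkbib* and *Bcl3* rose without a match. A match is a description of letters and shows no binding.

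TNF was the first treatment examined in slice microglia. Of the 10 genes, 6 rose and 0 fell: all 3 classical inhibitors, the noncanonical pair *Nfkb2* and *Relb*, and *Bcl3*. By edgeR 1 gene was lower at an unadjusted p under 0.05, and DESeq2 called 0 lower. Over all 11313 genes tested, 9.1% were called higher and 11.7% lower. The median log2 fold change of the 10 genes was 1.10, against -0.03 over all genes. In each of the 6 the TNF and medium samples did not overlap, which held for 10.3% of all genes in either direction.

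Among the classical inhibitors, *Nfkbie* (chr17:45555703-45563169, plus strand) had the largest change. Its lowest, median and highest values were 17.4, 30.8 and 39.5 CPM in medium and 131, 143 and 200 CPM with TNF. The rise was 5.1-fold (log2 2.35, SE 0.14, edgeR adjusted p 3.81e-16). *Nfkbia* (chr12:55489410-55492647, minus strand) stood at 180, 209 and 263 CPM in medium and at 779, 845 and 994 CPM with TNF. It rose 4.02-fold (log2 2.01, SE 0.07, edgeR adjusted p 2.13e-22) and ranked 2 by p among the 11313 genes. The gap between the groups exceeded the whole range within either of them. *Nfkbib* (chr7:28758251-28767512, minus strand) rose less, from 33.4, 40.7 and 47.8 CPM to 74.6, 83.4 and 99.1 CPM (2.04-fold, log2 1.03, SE 0.08, adjusted p 4.72e-13). Per kilobase of exon *Nfkbia* was the most abundant of the 3 with and without TNF, and the highest medium sample of each inhibitor lay below the lowest TNF sample. *Nfkbib* shares 14.5% of its exonic bases with *Ccer2* and 1.94% with *Sirt2* on the opposite strand, and whether strand was used in counting is not given in the sources used here.

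Of the genes for nuclear members of the family, *Bcl3* rose and *Nfkbiz* did not pass. *Bcl3* (chr7:19808462-19822770, minus strand), which encodes a nuclear partner of p50 and p52 dimers, ran from 19.8 to 30.7 CPM in medium (median 22.8) and from 40.5 to 63.6 CPM with TNF (median 52.4), a 2.25-fold rise (log2 1.17, SE 0.10, edgeR adjusted p 1.76e-11). *Nfkbiz* (chr16:55811375-55838899, minus strand), which encodes IκBζ, a coactivator of secondary response genes such as *Il6*, was at 11, 17.6 and 23 CPM in medium and at 8.8, 16.5 and 33.8 CPM with TNF. The groups overlapped and the gene did not pass (log2 0.14, 95% interval -0.36 to 0.63, adjusted p 0.707).

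Among the subunits, *Nfkb2* (p100/p52; chr19:46304320-46312385, plus strand) had the lowest, median and highest levels of 28.4, 45.6 and 57.5 CPM in medium and 126, 152 and 200 CPM with TNF. It rose 3.57-fold (log2 1.84, SE 0.14, edgeR adjusted p 1.69e-13). *Relb* (chr7:19606217-19629438, minus strand), the partner of p52, went from 24.4, 40.1 and 49 CPM to 86.7, 110 and 151 CPM (2.72-fold, log2 1.44, SE 0.12, adjusted p 5.81e-12). Opposite-strand neighbours share 11.6% (*AC114539.1*) and 6.52% (*Psd*) of the *Nfkb2* exonic bases and 6.51% (*Gm16175*) of those of *Bcl3*.

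The genes of the classical dimers were not called. *Rela* (p65; chr19:5637483-5648130, plus strand) ran from 158 to 199 CPM in medium and from 143 to 225 CPM with TNF (log2 0.17, 95% interval 0.02 to 0.32, adjusted p 0.0851). *Nfkb1* (p105/p50; chr3:135584655-135691547, minus strand) had a median of 40.1 CPM in medium (29.4 to 52.6) and 30.5 CPM with TNF (19 to 46.7). Its adjusted p was 0.00733, but the change (log2 -0.45, SE 0.13, 1.36-fold) stayed within the 1.5-fold limit. *Rel* (c-Rel; chr11:23736847-23770970, minus strand), the subunit gene with the lowest level per kilobase in slice microglia, had medians of 13.3 and 10.2 CPM (log2 -0.50, SE 0.25, adjusted p 0.107). It passed both limits when TNF replicate 4 (log2 -0.63, adjusted p 0.0383) or TNF replicate 11 (log2 -0.62, adjusted p 0.0426) was left out.

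**Figure D1:**
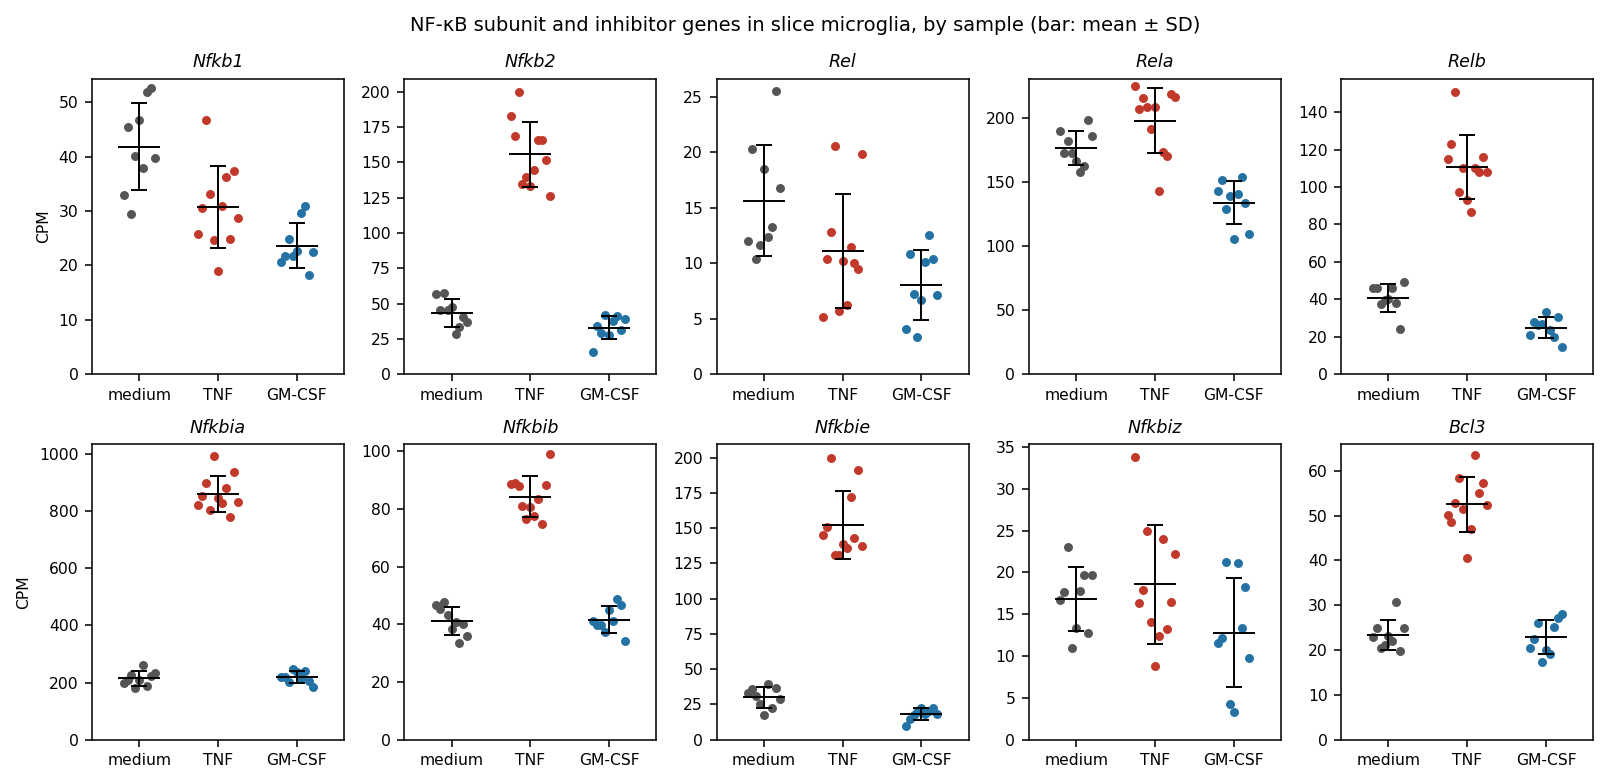
CPM of the 10 genes (vertical axes, each with its own scale from 0) in 9 medium, 11 TNF and 9 GM-CSF samples of slice microglia; points are samples and bars the mean ± SD. For *Nfkb2*, *Relb*, *Nfkbia*, *Nfkbib*, *Nfkbie* and *Bcl3* every TNF sample lies above every medium sample, whereas *Nfkbiz*, *Rel*, *Rela* and *Nfkb1* overlap.

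In the same samples the summed level of the 8 microglia markers was 20500 to 28900 CPM in medium and 12200 to 16000 with TNF, and 4 of the 8 were called lower, including *P2ry12*. The 5 monocyte and border macrophage markers summed to 260 to 638 CPM in medium and 286 to 515 with TNF. Of these *F13a1* made up most and was not called (log2 0.19, edgeR adjusted p 0.543), whereas *Mrc1* fell from a mean of 96.4 to 29.6 CPM (log2 -1.70, adjusted p 8.75e-07). The neutrophil markers summed to at most 13.8 and 104 CPM, with *Ly6g* at 0 in both groups and *S100a8* called higher (log2 2.18, adjusted p 0.00944). The astrocyte markers summed to 52.1 to 99.7 CPM in medium and 16.9 to 69.9 with TNF, with *Slc1a3* called lower (log2 -1.06, adjusted p 0.00104). Their part in the results was not tested. In bulk samples, fewer cells of a type and less RNA per cell cannot be told apart.

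Other genes of the pathway were read from 4 lists. The shares over all genes with TNF were 9.1% called higher and 11.7% lower. Of 16 kinases and adaptors, 2 rose with TNF, *Ikbke* (4.41-fold), an IKK-related kinase, and *Traf6* (1.54-fold), a ubiquitin ligase of receptor signalling. *Map3k14*, which encodes the NIK kinase of the noncanonical route, fell 2.08-fold (log2 -1.05, edgeR adjusted p 0.000155). The median of the list was 0.15. Of 11 ubiquitin-editing and feedback regulators, 4 rose and 1 fell (median -0.05). *Tnip3* rose 13.9-fold, and *Tnfaip3*, which encodes A20, the deubiquitinase that ends IKK signalling, rose from 69.2 ± 18.5 CPM (SD, n = 9) to 227 ± 32.2 (n = 11), 3.28-fold. *Otud7b* fell 1.54-fold. Of 7 tested IκB-like and nuclear regulators, 1 fell, *Nfkbid* (1.53-fold, adjusted p 0.0148), and the median was 0.02. Of 23 tested textbook target genes, 20 rose and 1 fell, with a median log2 fold change of 2.69. *Cxcl10* (57.3-fold) and *Ccl2* (30.8-fold) had the largest rises and *Cd83* fell 1.77-fold.

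GM-CSF, which signals mainly through JAK2 and STAT5, was tested against the same 9 medium samples. Of the 10 genes, 0 rose and 4 fell: the subunits *Rel*, *Nfkb1* and *Relb* and the inhibitor *Nfkbie*. By edgeR 0 were higher at an unadjusted p under 0.05 as well, and DESeq2 called 0 higher. Over all genes 4.84% were called higher and 5.96% lower, and the median of the 10 was -0.40 against -0.04 over all genes. *Nfkb1* ran from 18.3 to 30.9 CPM (median 22.4; log2 -0.82, SE 0.14, edgeR adjusted p 2.75e-05). *Relb* ran from 14.7 to 33.2 CPM (median 26.1; log2 -0.71, SE 0.13, adjusted p 5.88e-05). *Nfkbie* ran from 9.31 to 22.6 CPM (median 18; log2 -0.74, SE 0.14, adjusted p 0.000145). *Rel* ran from 3.36 to 12.5 CPM (median 7.24; log2 -0.96, SE 0.26, adjusted p 0.00548). Each of the 4 overlapped the medium samples.

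The 6 remaining genes were not called. *Rela* ran from 106 to 154 CPM, below every medium sample (158 to 199), a separation seen in 5.6% of all genes, but its change was 1.32-fold (log2 -0.40, SE 0.08, adjusted p 0.000235). *Nfkb2* ran from 15.9 to 41.7 CPM (log2 -0.40, SE 0.14, adjusted p 0.0309). *Nfkbia* (185 to 249 CPM), *Nfkbib* (34.2 to 48.9 CPM) and *Bcl3* (17.4 to 28.1 CPM) lay within 0.04 log2 units of medium, with 95% intervals of -0.10 to 0.16, -0.15 to 0.17 and -0.24 to 0.18. *Nfkbiz* varied most, from 3.34 to 21.2 CPM (log2 -0.40, 95% interval -0.92 to 0.13, adjusted p 0.308).

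The titles of the slice samples carry a code (1A, 1B, 2A or 2B) whose meaning is not given, and it was not taken to mark the experiments. The comparison was repeated within the code pairs. In codes 1A and 1B (4 medium and 4 GM-CSF samples) *Rel* was no longer called (log2 -1.08, adjusted p 0.0828) and *Nfkb2* was (log2 -0.77, adjusted p 0.0133). In codes 2A and 2B (5 and 5 samples) neither *Rel* (log2 -0.87, adjusted p 0.0672) nor *Nfkbie* (log2 -0.50, adjusted p 0.0901) was called, which left 2 called genes, *Nfkb1* and *Relb*. Within the same pairs TNF against medium called 6 genes each time.

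The microglia markers summed to 15400 to 17100 CPM with GM-CSF, with 4 of 8 called lower, and the monocyte and border macrophage markers to 249 to 763 CPM. The astrocyte markers summed to 30.9 to 61.3 CPM, with *Slc1a3* called lower (log2 -1.35, edgeR adjusted p 0.000277). Their part in the results was not tested. Of 16 kinases and adaptors only *Map3k14* was called, lower by 2.26-fold, and of 11 feedback regulators *Tnip3* (1.96-fold) and *Tnfaip3* (1.68-fold) fell. Of 7 tested IκB-like and nuclear regulators *Nkiras1* fell 1.53-fold (adjusted p 0.0387). The medians of these lists were -0.19, -0.19 and -0.30, and over all genes 4.84% were called higher and 5.96% lower. The 23 tested target genes split, with 4 higher and 4 lower (median 0.11): *Il6* rose 14.3-fold and *Ccl2* 13.9-fold, whereas *Vcam1* fell 2.01-fold and *Irf1* 1.72-fold.

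TNF and GM-CSF samples were also tested directly, since the comparisons above share the medium samples. With TNF, 6 genes were higher than with GM-CSF and 0 were lower (8.25% and 7.96% of all genes), also by DESeq2 and at an unadjusted edgeR p under 0.05 (0 lower). *Nfkbie* differed most, 8.49-fold (log2 3.09, SE 0.14, edgeR adjusted p 8.29e-19), followed by *Nfkb2* (4.72-fold), *Relb* (4.44-fold), *Nfkbia* (3.93-fold), *Bcl3* (2.29-fold) and *Nfkbib* (2.03-fold). *Rela* was 1.48-fold higher with TNF (log2 0.57, SE 0.08, adjusted p 2.84e-07), just inside the limit, and leaving out any of 4 single libraries (GM-CSF replicates 2 and 7, TNF replicates 7 and 9) put it over 1.5-fold. *Nfkb1* (log2 0.38, adjusted p 0.032), *Rel* (0.46, adjusted p 0.175) and *Nfkbiz* (0.53, adjusted p 0.116) were not called. In this contrast 2 of 16 kinases and adaptors (*Ikbke* 4.07-fold, *Traf3* 1.7-fold), 4 of 11 feedback regulators (*Tnip3* 27.2-fold, *Tnfaip3* 5.52-fold), 1 of 7 nuclear regulators (*Nkiras1* 1.8-fold) and 18 of 23 target genes (*Ccl5* 66-fold, *Cxcl10* 49.2-fold) were higher with TNF. By edgeR and DESeq2 0 genes of these lists were lower, and 1 was at an unadjusted p under 0.05. The medians were 0.20, 0.20, 0.17 and 2.13 against -0.02 over all genes.

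**Figure D2:**
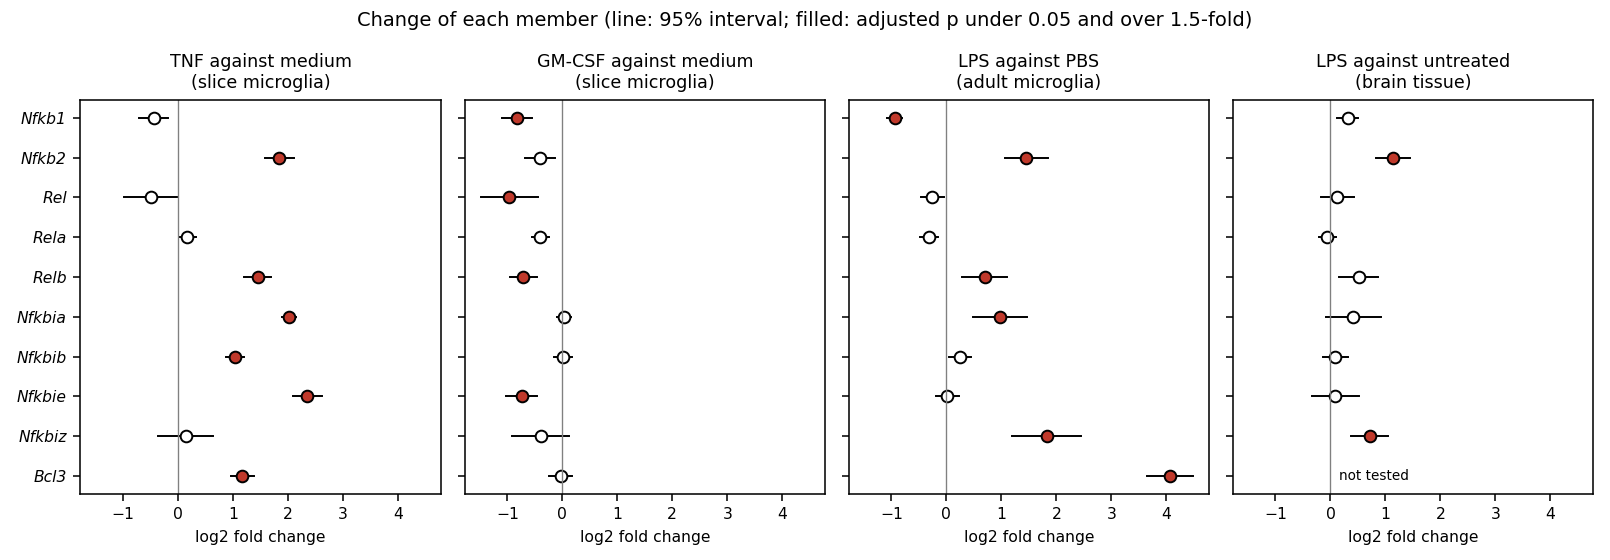
Log2 fold change (horizontal axis) of the 10 genes in each of the 4 treatments against its control; lines are 95% intervals and filled points passed an adjusted p of 0.05 and a 1.5-fold change. *Nfkb2* is filled to the right under TNF and both LPS comparisons, *Nfkb1* to the left under GM-CSF and LPS in microglia, and *Bcl3* reaches 4.06 after LPS in adult microglia.

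LPS given to adult mice was read in microglia 24 h later. Of the 10 genes, 5 rose (*Bcl3*, *Nfkbiz*, *Nfkb2*, *Nfkbia* and *Relb*) and 1 fell (*Nfkb1*). Over all 12987 genes tested, 14.4% were called higher and 13% lower, and the median of the 10 genes was 0.47 against 0.01 over all genes. LPS and PBS samples did not overlap for 7 of the 10 genes and for 47.5% of all genes.

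The nuclear family members changed most. *Bcl3* was at 3.23, 3.52, 3.38 and 2.23 CPM in the PBS samples (31 to 49 counts) and at 66.2, 35.7, 55 and 49.6 CPM in the LPS samples. This was a 16.7-fold rise (log2 4.06, SE 0.21, edgeR adjusted p 2.47e-07). *Nfkbiz* was at 17.5, 19.5, 14.7 and 13.8 CPM with PBS and at 81.2, 28.3, 50 and 72.1 CPM with LPS (3.53-fold, log2 1.82, SE 0.32, adjusted p 0.00207). All LPS samples exceeded all PBS samples in both genes, and LPS replicate 2 was the lowest of its group in both.

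*Nfkb1* went the other way. It was at 181, 187, 203 and 192 CPM with PBS and at 94.3, 108, 101 and 94.1 CPM with LPS (log2 -0.94, SE 0.07, 1.92-fold lower, edgeR adjusted p 1.13e-06). The 4 LPS samples were close to each other and well below the 4 PBS samples. *Nfkb2*, which encodes the other subunit precursor, was at 36.5, 40.8, 39.3 and 38.6 CPM with PBS and at 138, 71.7, 87.6 and 128 CPM with LPS (2.74-fold, log2 1.45, SE 0.20, adjusted p 0.000288). *Relb* was at 42.1, 36.4, 40.2 and 37.8 CPM with PBS and at 95.5, 47.6, 49.8 and 59.9 CPM with LPS. Its 1.62-fold rise (log2 0.69, SE 0.21, adjusted p 0.0209) rested partly on LPS replicate 1: without it the change was 0.42 (adjusted p 0.00441), under the limit. Without PBS replicate 2 the adjusted p was 0.0552, and with no low-count filter it was 0.102.

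*Rela* and *Rel* were not called. *Rela* was at 179, 180, 180 and 167 CPM with PBS and at 166, 141, 133 and 125 CPM with LPS, without overlap but 1.25-fold apart (log2 -0.32, SE 0.08, adjusted p 0.00763). *Rel* was at 64.1 to 68.8 CPM with PBS and 48.3 to 69.7 CPM with LPS (log2 -0.26, 95% interval -0.46 to -0.05, adjusted p 0.0613).

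Of the classical inhibitors, *Nfkbia* passed the test and the others did not. It was at 117, 152, 77.2 and 128 CPM with PBS and at 280, 160, 209 and 282 CPM with LPS, a 1.97-fold rise (log2 0.98, SE 0.25, edgeR adjusted p 0.0122). The lowest LPS sample, replicate 2, was just above the highest PBS sample. *Nfkbib* was at 29.7 to 32.9 CPM with PBS and 31.7 to 43.2 CPM with LPS (log2 0.25, SE 0.10, adjusted p 0.0536). *Nfkbie* was at 62.3 to 76.4 CPM with PBS and 58.5 to 81.5 CPM with LPS (log2 0.02, 95% interval -0.19 to 0.23). Its slice value under TNF was a log2 fold change of 2.35, but the treatments lie in separate tables and their difference was not tested.

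Genes from the marker lists of other cells moved with LPS in these libraries. The 5 neutrophil markers summed to 32.6 to 69.3 CPM with PBS and 1.61 to 7.66 with LPS, with *Ly6g* at 0 in the LPS group, and 4 of 4 tested were lower. The endothelial markers went from 28.9 to 36.3 CPM down to 10.2 to 13.7 CPM, the astrocyte markers from 254 to 280 CPM down to 145 to 181 CPM, and the monocyte and border macrophage markers from 15.8 to 21.6 CPM up to 27.6 to 39.2 CPM. Of the endothelial markers only *Pecam1* was tested, and it was called lower (log2 -1.59). Of the astrocyte markers *Slc1a3* was called lower (log2 -0.74), *Aldh1l1* was not called and the others were not tested. The monocyte and border macrophage markers split, with *F13a1* (log2 4.30) and *Mrc1* (0.64) called higher and *Ccr2* (-0.81) lower. *Ly6c2* and *Cd163* were not tested. The microglia markers summed to 55600 to 61700 CPM with PBS and 43300 to 47100 with LPS, with 2 of 8 called higher and 1 lower. Their part in the results was not tested.

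Of 16 kinases and adaptors, 2 rose in adult microglia after LPS (median 0.01). The shares over all genes were 14.4% called higher and 13% lower. *Map3k8*, the Tpl2 kinase bound by p105, rose 4.02-fold from 24.9 ± 4.87 CPM (SD, n = 4). *Ikbke* rose from 0.222 ± 0.0605 CPM, which is 2 to 4 counts per library, to 18.2 ± 9.17 CPM. Of 10 tested feedback regulators *Zc3h12a* (2.2-fold) and *Tnip2* (1.65-fold) rose and *Rnf11* fell 1.61-fold (median -0.06), and of 9 nuclear regulators *Ing4* fell 1.57-fold (median -0.05). Of 21 tested target genes 15 rose and 1 fell (median 2.02). *Ccl2* (33-fold) and *Ccl5* (32.7-fold) rose most, and *Il6* fell from 10.6 ± 2.54 to 2.51 ± 1.81 CPM.

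**Figure D3:**
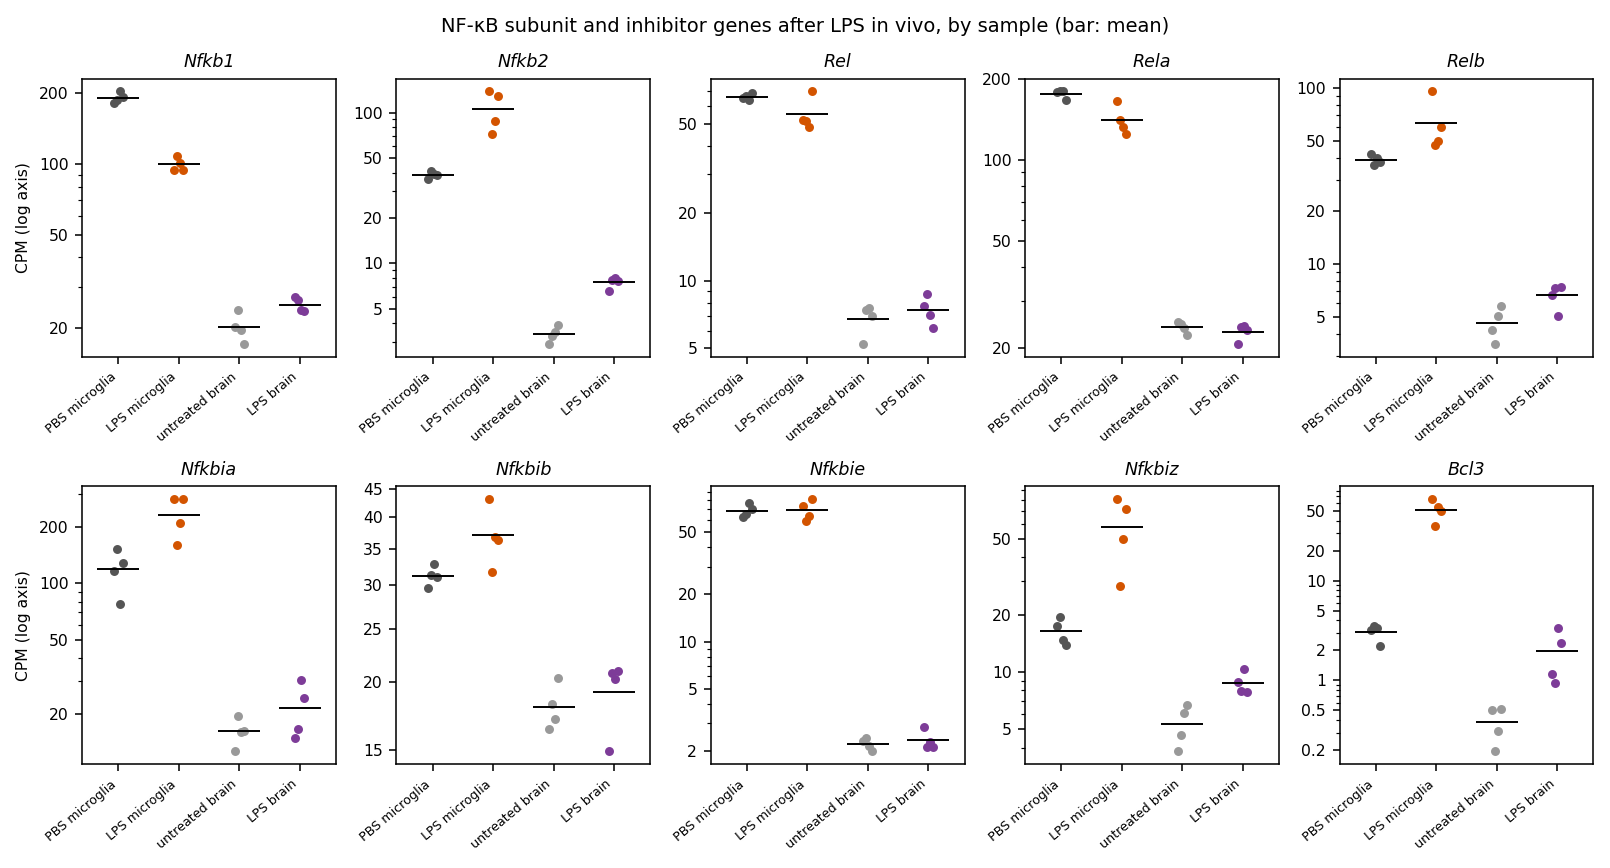
CPM of the 10 genes on log axes in adult microglia (4 PBS and 4 LPS samples) and brain tissue (4 untreated and 4 LPS samples); points are samples and bars the mean, and levels are compared only within a tissue. In microglia *Bcl3* separates most (2.23 to 3.52 against 35.7 to 66.2 CPM) and *Nfkb1* is lower in all 4 LPS samples.

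In whole brain tissue 9 of the 10 genes passed the low-count filter, and 2 of these 9 rose after LPS, *Nfkb2* and *Nfkbiz*. By edgeR 0 fell, also at an unadjusted p under 0.05, and DESeq2 called 0 lower. Over all 15083 genes tested, 2.63% were called higher and 0.55% lower, and the median of the 9 genes was 0.31 against 0.00 over all genes. *Nfkb2* was at 2.91, 3.3, 3.52 and 3.87 CPM untreated and at 6.54, 7.78, 7.98 and 7.64 CPM after LPS (2.19-fold, log2 1.13, SE 0.15, edgeR adjusted p 0.000192). *Nfkbiz* was at 3.82, 4.66, 6.11 and 6.69 CPM untreated and at 8.86, 7.9, 10.3 and 7.86 CPM after LPS (1.64-fold, log2 0.72, SE 0.17, adjusted p 0.0144). Untreated and LPS samples did not overlap in either gene, as in 16.9% of all genes. The *Nfkbiz* call was lost without untreated replicate 1 (adjusted p 0.0526) or untreated replicate 2 (adjusted p 0.0571).

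*Bcl3* was near the detection limit in brain tissue, with 5, 2, 3 and 5 counts in the untreated and 11, 8, 28 and 21 counts in the LPS libraries. The levels of 0.503, 0.194, 0.31 and 0.522 CPM and of 1.16, 0.943, 3.38 and 2.36 CPM did not overlap, and the ratio of the means was 5.13. A two-sided exact permutation test over the 8 samples gave p = 0.0286, the smallest that 4 against 4 samples allow. In the same exact test p was 0.0286 without any 1 of the LPS libraries and 0.0857 without any 1 of the untreated libraries, with a log2 ratio of the means of 1.96 to 2.59. The remaining LPS and untreated levels did not overlap in any of these cases. The test is two-sided on the difference of means, so with unequal groups its p also depends on which group is smaller. With no low-count filter edgeR gave a 4.94-fold difference (adjusted p 9.88e-05).

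The other genes were not called. *Relb* was at 3.5 to 5.75 CPM untreated and 5.08 to 7.41 CPM after LPS (log2 0.52, SE 0.18, adjusted p 0.0871), and passed without LPS replicate 3 (log2 0.62, adjusted p 0.018). *Nfkb1* was at 17.1 to 23.9 CPM and 23.6 to 27 CPM (log2 0.31, SE 0.10, adjusted p 0.053). *Nfkbia* was at 12.7, 19.7, 16.2 and 16.3 CPM untreated and at 15, 16.7, 30.7 and 24.6 CPM after LPS (log2 0.42, 95% interval -0.08 to 0.91), so that LPS replicates 3 and 4 were above and replicates 1 and 2 within the untreated range. *Rel* (log2 0.12), *Nfkbib* (0.09), *Nfkbie* (0.08) and *Rela* (-0.06) had adjusted p of 0.694, 0.688, 0.871 and 0.731. The neutrophil markers summed to 0.503 to 1.03 CPM untreated and 2.95 to 7.08 CPM after LPS, the endothelial markers to 140 to 160 and 150 to 216 CPM, and the microglia markers to 294 to 328 and 293 to 475 CPM. Their part in the results was not tested.

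Among other genes of the pathway in brain tissue, 0 of 15 tested kinases and adaptors were called by edgeR or DESeq2 (median 0.11), and 4 had an unadjusted edgeR p under 0.05, 3 higher and 1 lower. *Zc3h12a* was the 1 called among 10 feedback regulators (2.16-fold higher, median 0.03) and *Pdlim2* the 1 among 9 nuclear regulators (1.58-fold lower, median 0.03). Of 15 tested target genes 4 rose (median 0.48), led by *Ccl5* (21.6-fold) and *Cxcl10* (5.69-fold). The shares over all genes were 2.63% called higher and 0.55% lower.

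The LPS effects in microglia and in brain tissue were compared by an interaction term fitted to all 16 in vivo libraries. *Nfkb1* was the 1 called gene of the 10, with the effect in microglia lower by 1.26 on the log2 scale than that in brain tissue (log2 -1.26, SE 0.12, edgeR adjusted p 2.16e-07). Over all 16676 genes 9.1% were called with the higher and 10.6% with the lower effect in microglia. *Bcl3* (difference 1.73, 95% interval 0.38 to 3.09, adjusted p 0.072) and *Nfkbiz* (1.10, 95% interval 0.26 to 1.93, adjusted p 0.0653) did not pass. Both passed without adult LPS replicate 2 (adjusted p 0.0256 and 0.000798) and with DESeq2 (0.00789 and 0.0151), and *Bcl3* also passed without brain LPS replicate 3 (adjusted p 0.0241). *Bcl3* did not pass the low-count filter in brain tissue alone and entered this fit through the microglia libraries. Its brain effect rests on 2 to 28 counts per library, so these values do not settle whether its 2 effects differ. *Nfkb2*, called higher in both tissues, differed by 0.31 (95% interval -0.26 to 0.88). Library kit, control treatment and tissue coincide in this comparison and cannot be told apart. In the pathway lists 1 of 16 kinases and adaptors had a higher effect in microglia (*Map3k8*, difference 1.34) and 2 a lower one (*Tab2* and *Map3k14*), 1 of 10 tested feedback regulators was higher (*Tnip2*) and 1 lower (*Rnf11*), and 1 of 9 nuclear regulators was lower (*Ing4*). Of 21 tested target genes 6 had a higher effect in microglia, among them *Ier3* and *Traf1* (difference 2.15), and 1 a lower one (*Cd83*). The list medians were -0.08, -0.16, 0.05 and 1.18, against -0.03 over all genes. The target list here includes *Ccl2*, *Il1b*, *Il6*, *Tnf*, *Cd40* and *Il12b*, and the kinase list *Ikbke*. These genes did not pass the low-count filter in brain tissue alone. The target median of 1.18 is the value of *Ccl2* (SE 4.44), so no difference between the tissues is drawn from it.

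Levels of different genes were compared per kilobase of exonic sequence (CPM per kb). This length is the union of all annotated exons of a gene, 12.061 kb for *Nfkb1* and 3.072 kb for *Rela*. It can exceed the transcript that is expressed, so a level per kb can be understated, and which transcripts were expressed was not examined. *Nfkbia* ranked first and *Rela* second in all 3 slice groups and both adult microglia groups. In medium *Nfkbia* stood at 133 ± 15.8 CPM per kb (SD, n = 9) and *Rela* at 57.5 ± 4.33, each apart from the next gene in order, whereas *Relb*, *Nfkbie*, *Nfkb2* and *Bcl3* (10.5 to 9.43) overlapped with their neighbours. With TNF *Nfkbia* reached 535 ± 38.7 (n = 11), and the ranges of *Rela* (64.6 ± 8.31), *Nfkbie* (50.1 ± 7.95), *Nfkbib* (38.8 ± 3.31), *Nfkb2* (34 ± 5.01), *Relb* (28.5 ± 4.36) and *Bcl3* (21.2 ± 2.5) overlapped from each of these genes to the next. In PBS microglia *Nfkbia* (73.4 ± 19.3, n = 4) and *Rela* (57.4 ± 2) overlapped, and *Bcl3* was last at 1.25 ± 0.236. After LPS *Bcl3* stood at 20.9 ± 5.12 CPM per kb, and from *Nfkb2* (23.2) down to *Rel* (7.42) each gene overlapped the next in order. In untreated brain tissue *Nfkbia* (10.1 ± 1.79), *Nfkbib* (8.29 ± 0.783) and *Rela* (7.77 ± 0.381) led, and neighbours among them overlapped.

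The share of each subunit gene in the summed CPM per kb of all 5 subunit genes shifted accordingly. *Rela* held 69.2% ± 2.08 in the 9 medium samples (SD), 49.3% ± 3.91 in the 11 TNF samples and 72.2% ± 3.74 in the 9 GM-CSF samples. The highest TNF sample (54.9%) was below the lowest medium sample (66.6%). *Nfkb2* held 11.4% ± 2.16 in medium and 26% ± 3 with TNF, and *Relb* 12.7% ± 2.43 and 21.7% ± 1.56. In adult microglia *Rela* went from 57% ± 0.997 with PBS to 45.8% ± 4.78 with LPS (n = 4 each), *Nfkb1* from 15.7% ± 0.736 to 8.33% ± 1.64 and *Nfkb2* from 8.42% ± 0.384 to 22.7% ± 4.31, each without overlap of the samples. In brain tissue *Nfkb2* went from 6.04% ± 0.788 to 11.8% ± 0.726. These shares follow from the levels above, depend on the same exon lengths and were not tested separately.

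**Figure D4:**
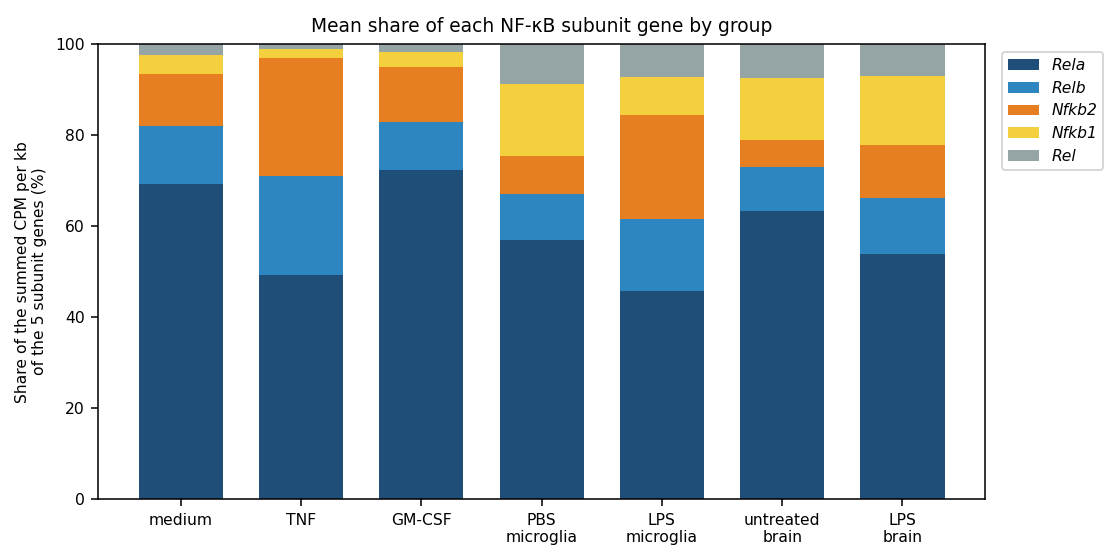
Mean share (vertical axis, percent) of each of the 5 subunit genes in their summed CPM per kb, as stacked bars for the 7 groups. *Rela* is the largest part of every bar, 69.2% in medium and 49.3% with TNF, and the *Nfkb2* part is 26% with TNF and 22.7% in LPS microglia.

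Correlations between the genes were then set beside their values within treatments. Over the 29 slice samples, which share their treatments, the log2 CPM of *Nfkb2* and *Nfkbie* had a Pearson r of 0.956, and that of *Nfkbia* and *Nfkbib* 0.958. After the mean of each treatment was removed these fell to 0.391 and 0.156. Among all 11313 genes the pattern most like *Nfkbia* was that of *Slamf8* (r = 0.989), most like *Nfkb2* was *Icam1* (0.970), most like *Nfkbie* was *Il2rg* (0.979), most like *Relb* was *Arl5c* (0.964), most like *Bcl3* was *Gm47242* (0.959) and most like *Nfkbib* was *Icam1* (0.960). For the genes without a TNF call it was *Lamp2* for *Nfkb1* (0.807), *Rasa4* for *Rela* (0.861), *Rere* for *Rel* (0.730) and *Clip1* for *Nfkbiz* (0.757). These values include the differences between treatments, and the order was another one within treatments, where r was 0.788 for *Nfkbiz* and *Clip1*, 0.636 for *Rel* and *Rere*, 0.634 for *Nfkbia* and *Slamf8* and 0.361 for *Nfkbib* and *Icam1*. *Nfkbiz* and *Bcl3* had the largest correlation of any 2 of the genes within treatments, at 0.504. Correlations are given as descriptions.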

How the data were processed

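RNA sequencing values of 45 samples were analysed in 3 tables. For slice microglia the authors deposited raw read counts per gene in whole numbers; the submitters' processing notes name STAR 2.7.0a and featureCounts of Subread 1.6.4 with the mm10 build. For adult microglia and brain tissue the authors deposited expected counts (estimated counts per gene, not normalized) on mm10, with tools not given in the sources used here. Expected counts were rounded. The brain table also lists 92 spike-in rows, which held 0 counts and were left out. Both kinds of microglia were prepared with SMART-Seq v4 and Nextera XT kits and brain tissue with an mRNA kit.

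Groups came from the sample labels. Counts were fitted in R 4.3.3 with edgeR 4.0.16 (TMM, robust quasi-likelihood F test) after filterByExpr (minimum count 10, minimum total 15). All 29 slice samples were fitted together, each in vivo table alone, and the interaction over 16 in vivo samples. Fold changes carry the default prior count and SE refers to the log2 fold change. A call needed a Benjamini-Hochberg adjusted p under 0.05 over all genes tested and a 1.5-fold change. Bcl3 did not pass the filter in brain tissue and was tested by exact permutation. CPM per kb used the union of GENCODE M21 exons (GRCm38), and sequences were taken from RefSeq (GRCm38.p6). The fit was tested on simulated data.

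The 10 genes, 4 pathway lists and 8 marker lists were chosen with earlier results of these data known. All 10 genes are named in each comparison, and from each pathway list the 2 called genes with the largest change in each direction. For likeness, the gene with the highest Pearson r over the 29 slice samples is given, of the 2 highest that were found. Alternatives were DESeq2 1.42.0 and its size factors, library totals, other filters, no fold limit, the replicate number as a block, title codes, fits of 2 groups alone and leaving out each library. Libraries carry no molecular identifiers, and replicates of a group differed by more than sampling noise.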

Additional observations from a re-analysis of the deposited data

Results flagged for a closer look

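Of 60 sets of 4 to 10 samples (10 genes in 6 groups, the TNF group of 11 samples not being examined), 5 held a sample set apart from the rest of its group by Dixon's criterion at 95%, and chance alone sets apart about 1 set in 20. In adult microglia after LPS, *Rel* was 69.7 CPM in replicate 4 and at most 51.8 in the others. In PBS microglia *Rela* was 167 CPM in replicate 4 and at least 179 in the others. In brain tissue after LPS *Nfkbib* was 14.9 CPM in replicate 1 and at least 20.2 in the others. In slice microglia in medium *Relb* was 24.4 CPM in replicate 8 and at least 37.6 in the others, and *Bcl3* was 30.7 CPM in replicate 7 and at most 25 in the others. *Relb* and *Bcl3* kept their calls against medium when the library set apart was left out. *Rel* and *Rela* in adult microglia and *Nfkbib* in brain tissue had no call to lose, and gained none without it.

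The LPS effect on *Nfkb1* differed between adult microglia and brain tissue by -1.26 on the log2 scale (SE 0.12, edgeR interaction over 16 samples, adjusted p 2.16e-07). It was lower in 4 of 4 LPS microglia samples than in every PBS sample, whereas in brain tissue the LPS samples ran from 23.6 to 27 CPM and the untreated ones from 17.1 to 23.9 CPM.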

How the results depend on the processing

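The number of called genes among the 10 was 6 for TNF against medium, 4 for GM-CSF against medium, 6 for TNF against GM-CSF, 6 for LPS in adult microglia, 2 for LPS in brain tissue and 1 for the interaction. Over 53 values from alternatives other than leaving out a library, 51 stayed within 1.5 times of these counts. The exceptions were 2 genes called for GM-CSF with title codes 2A and 2B alone and 3 called for the interaction with DESeq2. Leaving out each library in turn gave 6 to 7, 4 to 4, 6 to 7, 5 to 6, 2 to 3 and 1 to 3 called genes in the same order. The replicate numbers do not pair samples by the labels, and same-numbered samples did not all deviate together (a correlation over 0.1 in 4, 2 and 2 of 9 pairs of slice comparisons and in 0 of 4 pairs of each tissue). With the replicate number as a block the counts were 6, 4, 6, 6 and 2, unchanged. No interaction was fitted with the block. Without a fold limit 7, 6, 8, 7, 2 and 1 genes were called.

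Only genes near 0 change changed sign. For GM-CSF against medium these were *Bcl3* with library totals only (0.077), *Nfkbib* with codes 1A and 1B alone (-0.206) and *Nfkbia* with codes 2A and 2B alone (-0.031), and, with single libraries left out, *Bcl3* (-0.069 to 0.030) and *Nfkbib* (-0.022 to 0.043). After LPS *Nfkbie* changed sign in adult microglia with no low-count filter (-0.004) and with single libraries left out (-0.067 to 0.092), in brain tissue (-0.029 to 0.126) and in the interaction (-0.161 to 0.042), as did *Relb* in the interaction (-0.103 to 0.281). The cause was not tested. Counts of called pathway-list genes, many of them of 1 or 2 genes, moved by over 1.5 times in 46 of 360 values with a library left out and in 32 of 212 others. Depth limits *Bcl3* in brain tissue, at 2 to 28 counts per library.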
